A study of Mus musculus with 2 samples.

Results

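The clustered replication-dependent histone genes were followed in RNA from whole adult mouse ovary. Members were the protein-coding genes of the deposited gene tables whose identifier maps to a symbol beginning with Hist1h, Hist2h, Hist3h or Hist4h. There were 64 such genes among 21474 protein-coding genes and 43346 mouse gene rows. By histone type, 6 encode H1, 18 H2A, 15 H2B, 12 H3 and 13 H4. By cluster, 52 lie in Hist1 on chromosome 13, 9 in Hist2 on chromosome 3, 2 in Hist3 on chromosome 11 and 1, Hist4h4, on chromosome 6. A further 3 rows with such symbols are pseudogenes and were left out.

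Histones H2A, H2B, H3 and H4 form the protein core around which DNA winds in the nucleosome, and H1 binds the DNA between nucleosomes. The replication-dependent genes lie in clusters, are transcribed mainly in S phase and supply histones for newly copied DNA. Most of their messenger RNAs have no introns and no poly(A) tail: they end at a conserved stem-loop that is bound by the stem-loop binding protein Slbp and cut with the help of the U7 small nuclear RNA. Copies that keep a poly(A) tail are known in cells that no longer divide. In the ovary, granulosa cells of growing follicles divide, and oocytes, which do not replicate DNA, store histones for the embryo.

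The study has 1 group: ovaries of female C57BL/6J littermates aged 8 weeks, with no treatment or allele named. It has 2 libraries, replicate 1 and replicate 2, made from poly(A)+ RNA over 200 nucleotides after ribosomal RNA depletion and sequenced as stranded pairs of 76 bases. The labels call them biological replicates but cite 1 donor record for both, so the spread between them may be technical. Replicate 1 held 41124061 gene counts and replicate 2 held 34930860. Markers of the tissue were present in both libraries. All 14 oocyte genes and all 7 granulosa genes on the marker lists reached 1 TPM in each library, while of 8 spermatid genes 1 did, and Prm1 and Tnp1 had 0 counts. TPM is a level divided by effective gene length and scaled to the same total in each library, and is used wherever genes are compared with one another.

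The stem-loop is the feature that most sets these messenger RNAs apart, and the rule for membership did not use it. A search of the annotated transcripts (GENCODE M21, build GRCm38) within 300 bases after the stop codon found it in 44 of the 50 members with at least 16 bases annotated past the stop codon, or 88%. Among other protein-coding genes it was found in 4 of 20916, or 0.0191%: the variant gene H2afx, H2bfm, and the clustered genes Hist1h2bh and Hist1h2bm, which are not analysed here. The following set shows the highest member with each of the 8 forms of the 16-base core, with the core in capitals and up to 5 bases on either side, 5′ to 3′ as DNA.
Hist1h2ap: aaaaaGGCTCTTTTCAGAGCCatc
Hist2h2ac: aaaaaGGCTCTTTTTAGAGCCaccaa
Hist1h3c: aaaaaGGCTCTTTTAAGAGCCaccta
Hist1h3g: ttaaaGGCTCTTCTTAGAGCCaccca
Hist1h4d: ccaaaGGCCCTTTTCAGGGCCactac
Hist1h4i: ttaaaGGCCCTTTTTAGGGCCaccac
Hist1h4j: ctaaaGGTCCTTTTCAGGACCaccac
Hist1h4a: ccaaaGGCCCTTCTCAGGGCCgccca
The form of Hist1h2ap was the commonest, in 24 members of the H1, H2A, H2B and H3 types, and Hist1h2ap's annotation ends 3 bases after it. The form of Hist1h4d was carried by 7 members, all of them H4, and none of the 4 forms found in H4 genes occurred in another type. The core began 21 to 58 bases after the stop codon, with a median of 31.5. It was not found in Hist1h1a, Hist1h2bc, Hist1h2bq, Hist1h2br, Hist2h2be and Hist2h3b, and the other 14 members are annotated with fewer than 16 bases past the stop codon.

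Nearly all members are short and made of 1 exon, and many are near copies of one another. The length in the deposited tables ran from 312 to 2879 bases, with a median of 483.5, and 60 members have 1 exon. The exceptions are the H2B genes Hist1h2bc, Hist1h2be, Hist1h2bq and Hist1h2br. Translating the annotated coding sequences gave 1 protein for all 13 H4 genes, 2 proteins for the 12 H3 genes, 9 for the 18 H2A genes, 9 for the 15 H2B genes and 6 for the 6 H1 genes. Coding sequences within a type were identical at a median of 93.9% of positions for H4, 97.2% for H3, 91.3% for H2A and 94.5% for H2B, but 70.6% for H1. Reads of 76 bases can therefore fit several genes, and a value for 1 member depends on how the authors' method divided them.

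Of the 64 members, 57 reached 1 TPM in each library, beside 62.0% of all protein-coding genes. The members' summed TPM was 3907 in replicate 1 and 6295 in replicate 2, and they took 0.0944% and 0.144% of the gene counts. In bulk tissue, fewer cells making a transcript and less transcript in each cell cannot be told apart. By type, the summed TPM was highest for H2A, at 2363 in replicate 1 and 4274 in replicate 2 (3319 ± 1352, mean ± SD, n = 2). H2B reached 632 and 827 (730 ± 138), H3 603 and 845 (724 ± 171), H4 262 and 308 (285 ± 32.6) and H1 46.6 and 40.9 (43.7 ± 4). H2B and H3 did not differ beyond their spread, and in either library H2A lay above both, H4 below both and H1 lowest. The first 5 members by level held ranks 72 to 439 among all protein-coding genes.

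**Figure D1:**
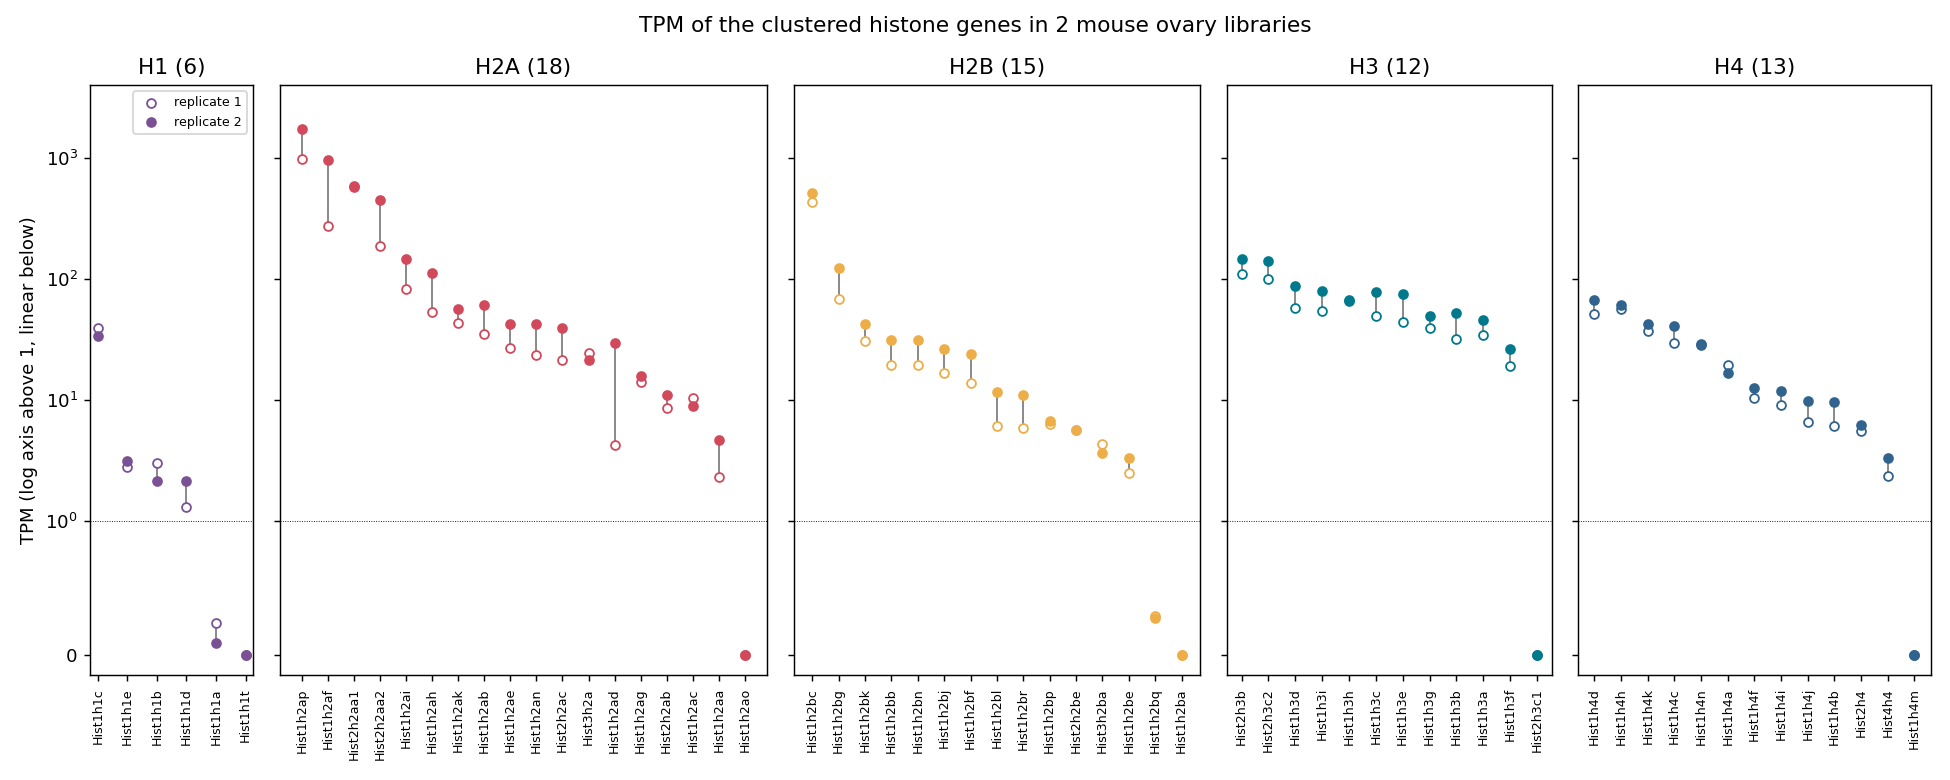
TPM (vertical axis, logarithmic above 1 and linear below) of the 64 members by histone type, sorted by their mean, with open points for replicate 1, filled points for replicate 2 and a line joining them. Hist1h2ap stands highest at 972 and 1713 TPM, every H3 gene with reads lies higher in replicate 2, and 5 members lie at 0.

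H2A is the partner of H2B in the outer dimers of the nucleosome core. Its highest member was Hist1h2ap (chr13:21833026-21833507, minus strand, 1 exon), with 972 TPM in replicate 1 and 1713 in replicate 2 (1343 ± 524). Hist1h2af (chr13:23533906-23534304, plus strand) had 274 and 959 TPM. Hist2h2aa1 (chr3:96245497-96246082, plus strand) had 581 and 571 TPM, and Hist2h2aa2 (chr3:96239749-96240276, minus strand) had 187 and 444. The values assigned to Hist2h2aa1 were close in the 2 libraries, while those of the other 3 lay well apart. Hist2h2aa1 and Hist2h2aa2 have the same coding sequence, so their separate values depend on the division of reads. Together they had 767 TPM in replicate 1 and 1015 in replicate 2. The 17 H2A members with reads had a median of 26.6 TPM in replicate 1 and 42.3 in replicate 2, so these 4 stood far above the rest. Hist1h2aa had 2.29 and 4.62 TPM from 11 and 21 counts, too few to pass the filter for testing. Of the 18 members, 9 encode the same H2A protein, and together they had 1168 and 2057 TPM.

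Hist1h2bc (chr13:23684199-23692908, plus strand) led the H2B genes with 434 and 507 TPM (471 ± 51.4) and held 68.7% and 61.3% of the type's summed TPM. It is annotated with more than 1 exon and no stem-loop was found in the annotated form searched. Hist1h2bg had 67.6 and 123 TPM, Hist1h2bk 30.5 and 42.7, and Hist1h2bb 19.3 and 31.0. Each of these 3 was higher in replicate 2, and none of their ranges reached that of Hist1h2bc. The other 10 H2B members with reads lay between 0.28 and 31.0 TPM. Among them, Hist3h2ba, in the small Hist3 cluster, had 4.29 and 3.62 TPM.

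H3 genes were the most even. H3 and H4 form the central tetramer of the nucleosome, and H3 tails carry many of the known histone marks. Hist2h3b (chr3:96268654-96269141, plus strand) had 109 and 144 TPM and Hist2h3c2 (chr3:96238108-96239127, minus strand) had 100 and 140, so these 2 did not differ beyond their spread. Hist1h3d had 57.2 and 87.8 TPM and Hist1h3i 54.5 and 79.4. All 11 H3 members with reads had at least 19.0 TPM in replicate 1 and 26.4 in replicate 2, and all 11 were higher in replicate 2.

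The 13 H4 genes encode 1 protein yet differed widely in TPM. Hist1h4d (chr13:23581598-23582735, plus strand) had 51.5 and 66.7 TPM and Hist1h4h 56.0 and 60.6, with overlapping ranges. Hist1h4k had 37.3 and 42.1 TPM and Hist1h4c 29.2 and 40.5. Below these 4, the H4 members with reads ran down to Hist4h4 (chr6:136801553-136804415, minus strand), at 2.36 and 3.33 TPM. Hist4h4 is the longest member in the tables and lies in no array with other members. This order depends on the length by which TPM is divided. Hist4h4 had 185 and 219 counts over 2879 bases, and Hist1h4k had 93.5 and 111 over 312. Hist1h4d was measured on a form of 393 bases, which GENCODE M21 gives as 1138 bases.

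Among the clustered genes of H1, the linker histone, most of the summed TPM came from 1 gene. Hist1h1c (chr13:23738808-23740367, plus strand) had 39.2 and 33.4 TPM and held 84.2% and 81.7% of the type's summed TPM. Hist1h1e had 2.80 and 3.12 TPM, Hist1h1b 3.02 and 2.12, Hist1h1d 1.31 and 2.15, and Hist1h1a 0.24 and 0.09, the last from 3 and 1 counts. The range of Hist1h1b overlapped those of Hist1h1e and Hist1h1d. Hist1h1t, the testis-specific H1, had 0 counts in both libraries.

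Besides Hist1h1t, 4 members had 0 counts in both libraries: Hist1h2ao, Hist1h2ba, Hist2h3c1 and Hist1h4m. Where reads are not shared with another gene, a count of 0 allows up to 3 counts. That is 0.0730 CPM (a count scaled by the library total) in replicate 1 and 0.0859 in replicate 2. Hist1h2ba shares its whole coding sequence with no other member, and 67.0% of its 76-base windows occur in no other gene. The other 3 are of another kind, since each has the same coding sequence as a member with reads: Hist1h2ao as Hist1h2ap, Hist2h3c1 as Hist2h3c2, and Hist1h4m as Hist1h4n. A 0 at these genes is therefore a value of the read division and does not show that the copy is silent. Their deposited posterior mean counts were 0.78 and 0.81 for Hist1h2ao, 2.31 and 3.63 for Hist2h3c1, and 3.31 and 5.61 for Hist1h4m. The bound of 3 counts does not hold for them. The fourth pair of genes with 1 coding sequence, Hist2h2aa1 and Hist2h2aa2, was split between both copies. Hist2h2aa2 took 21.2% of the pair's counts in replicate 1 and 39.8% in replicate 2.

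The certainty of that division can be read from the deposited posterior mean and posterior SD of each count. Among the 55 members with at least 20 counts in both libraries, 13 (23.6%) had a posterior SD above 5% of the posterior mean in at least 1 library, beside 2.30% of all genes with as many counts. By type these were 8 of 16 H2A, 2 of 13 H2B, 2 of 11 H3, 1 of 12 H4 and 0 of 3 H1 members. The share of 76-base windows found in no other gene had a median of 32.3% in H2A, 50% in H2B, 41.3% in H3, 75.6% in H4 and 99.3% in H1. Of the 24 members with under 50% such windows, 10 had a posterior SD above 5%, against 3 of the 31 others. Few unique windows did not always go with a wide posterior, since Hist1h2ap had 7.37% unique windows and a posterior SD of 0.195% and 0.273%.

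**Figure D2:**
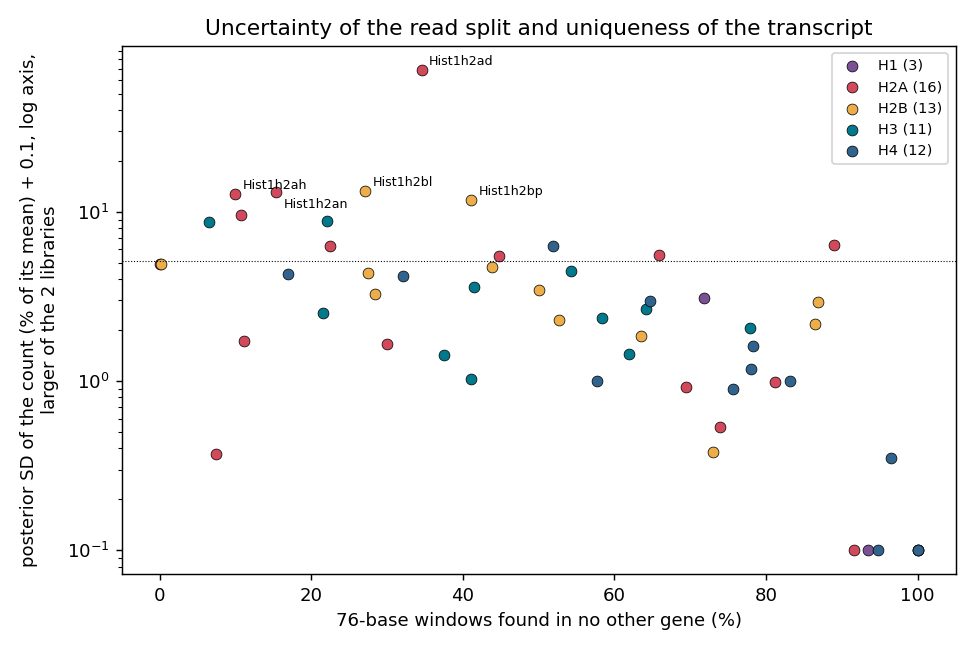
Posterior SD of the count as a percentage of its mean, plus 0.1 (logarithmic vertical axis, the larger of the 2 libraries), against the percentage of 76-base windows found in no other gene, for the 55 members with at least 20 counts in both libraries. The dotted line marks 5%, above which lie 13 members, with Hist1h2ad highest at 69.0%.

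Hist1h2ad was the least certain of them. The authors' deposited expected counts for it were 29.7 in replicate 1 and 187 in replicate 2, and the posterior mean counts were 47.7 and 188. It was the 1 member of 55 (1.82%) whose 2 estimates differed over 1.5-fold in either library, beside 0.0968% of all genes. The authors' deposited 95% interval of its TPM ran from 0.207 to 16.4 in replicate 1 and from 7.06 to 50 in replicate 2, so the intervals overlap. For Hist1h2af the deposited intervals were 253 to 286 TPM and 911 to 976, which do not overlap.

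Most tested members were higher in replicate 2. A mean count of 20 or more was reached by 56 members, and 40 of these were called higher in replicate 2 (exact binomial test on the counts of the 2 libraries, Benjamini-Hochberg adjusted p under 0.05), beside 29.0% of the 15939 genes tested. There were 2 called lower, Hist1h1c and Hist3h2a, beside 26.8% of all genes, and 14 were not called. The median log2 ratio of replicate 2 over replicate 1 was 0.59 over these members and -0.01 over all genes tested. On TPM, the medians were 0.48 and -0.05. Scaling to the ERCC spike-ins, RNAs added to each sample, shifted the median of all genes by -0.43. On that scale 23 members were called higher, beside 7.13% of all genes, and 7 lower, beside 71.4%, with a median of 0.16 for members and -0.44 for all genes. The test compares the reads of 2 libraries of 1 group, not conditions, and covers counting error only. With the trend with GC content removed, 32 members were called higher, beside 27.4% of all genes, and 3 lower, beside 27.5%.

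**Figure D3:**
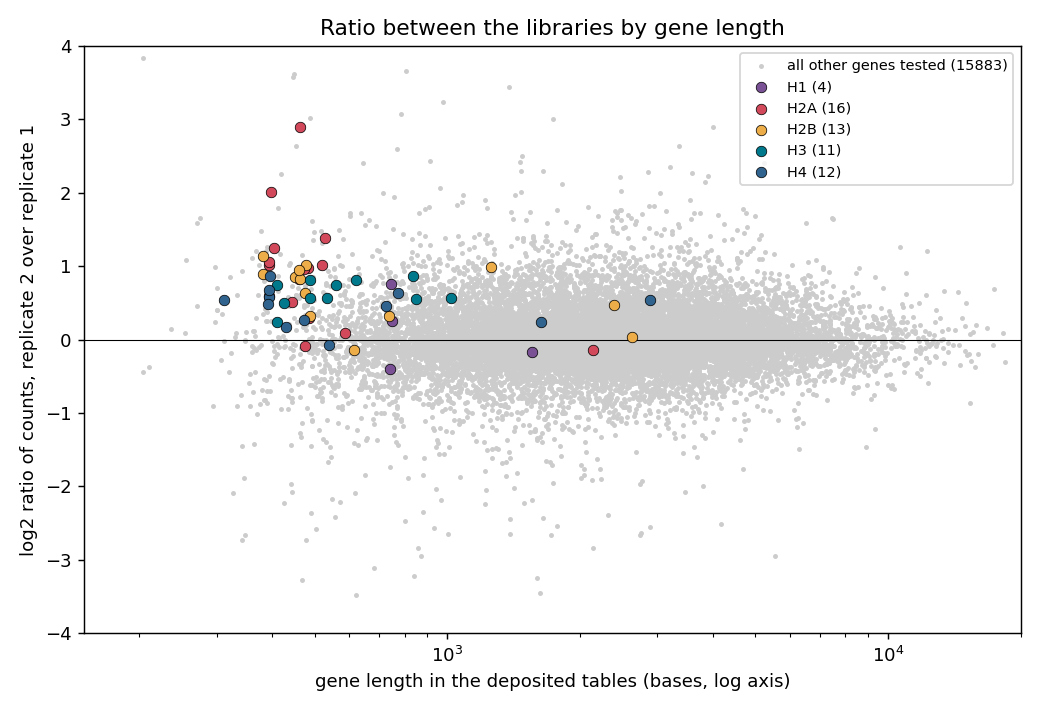
Log2 ratio of counts, replicate 2 over replicate 1, against gene length in the deposited tables (logarithmic axis), for the 56 members tested, coloured by type, and the 15883 other genes tested in grey. Members lie mostly above 0 and mostly under 1000 bases, where other genes lie on both sides of 0.

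By type, the summed counts of H2A went from 19804 to 29194, a log2 ratio of 0.86 (counting SE 0.01), and those of H3 from 6821 to 8610, a log2 ratio of 0.64 (0.02). The H2B sum had a log2 ratio of 0.42 (0.02) and the H4 sum 0.40 (0.05), and both turned to -0.012 and -0.033 on the spike-in scale. The H1 sum went from 1655 to 1212, a log2 ratio of -0.15 (0.05). Members called higher were 12 of 16 in H2A, 10 of 13 in H2B, 10 of 11 in H3, 8 of 12 in H4 and 0 of 4 in H1, with the lower calls in H2A and H1. The shares over all genes tested were 29.0% higher and 26.8% lower. Beside these, a count of 0 among only 4 H1 members says little. At an unadjusted p under 0.05 in the same test, 0 H1 members were higher either. Without Hist1h2ap and Hist1h2af, which were left out after the values were seen, the H2A log2 ratio was 0.52.

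The 5 largest log2 ratios all belonged to H2A and H2B genes. Hist1h2ad had 2.89 (counting SE 0.28), with the uncertain division given above. Hist1h2af had 2.01 (0.04), from 1391 to 4572 counts, and its posterior SD was 1.56% and 0.925%. Hist2h2aa2 had 1.39 (0.04), from 1657 to 3528 counts, while its copy Hist2h2aa1 had 0.10 (0.03), from 6156 to 5346. Summed over both copies, the ratio was 0.48 (0.02), so the larger part of the ratio at Hist2h2aa2 lay in the changed split between the copies. On the spike-in scale Hist2h2aa1 alone turned to -0.34, and to -0.26 with the GC trend removed. Hist1h2ah had 1.25 (0.11) and Hist1h2bl 1.13 (0.34), with posterior SDs of 12.6% and 13.1% in replicate 1. The calls of Hist2h2aa1 and Hist1h2bl ended with a Bonferroni threshold.

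At the other end, Hist1h1b had a log2 ratio of -0.41 (counting SE 0.35) from 46 and 28 counts and was not called (adjusted p = 0.364, exact binomial test), though it was called lower on the spike-in scale (-0.83). Hist1h1c had -0.17 (0.06), from 1543 to 1113 counts, and was called lower (adjusted p = 0.00560, exact binomial test). Hist3h2a had -0.14 (0.06), from 1375 to 1012 counts, and was called lower (adjusted p = 0.0327, exact binomial test). Both calls ended with a Bonferroni threshold, and that of Hist3h2a also with the GC trend removed. Hist3h2ba had -0.14 (0.32) and Hist1h2ac -0.08 (0.25), and neither was called. The Hist3 members both had negative values, and the lone Hist4 member, Hist4h4, had 0.54 (0.14) and was called higher, a call that ended on the spike-in scale (0.11) and with a Bonferroni threshold.

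The highest members of the other types had these ratios. Hist1h2bc had a log2 ratio of 0.32 (counting SE 0.03), Hist2h3b 0.56 (0.07), Hist2h3c2 0.56 (0.04), Hist1h4d 0.59 (0.12) and Hist1h4h 0.27 (0.10), all called higher. On the spike-in scale Hist1h2bc turned to -0.12 and Hist1h4h to -0.16, and the calls of Hist2h3b (0.13) and Hist1h4d (0.15) ended. With the GC trend removed the calls of Hist2h3b (0.0065) and Hist1h4h (0.20) ended, and that of Hist1h4h also ended with a Bonferroni threshold. Hist1h2ap, the highest of all members, had 0.97 (0.02).

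Length and the annotated end of the transcript moved with the ratio. The 32 members under 500 bases had a median log2 ratio of 0.77 and 25 called higher, the 16 from 500 up to but under 1000 bases 0.56 with 11 higher, and the 8 of 1000 bases or more 0.35 with 4 higher and 2 lower. Protein-coding genes that are not members had medians of -0.11, -0.04 and -0.00 in the same classes, with 30.4%, 26.9% and 29.7% called higher. Over all genes tested, members included, 37.0%, 26.2% and 29.1% were called higher. Other protein-coding genes with 1 exon had a median of 0.27 over 334 genes, 53.3% of them called higher. In that comparison group the 11 genes under 500 bases had a median of -0.52, the 30 of the middle class -0.07, and the 293 of 1000 bases or more 0.31 with 57.0% called higher, close to the 0.35 of the members of that length. The mean fragment length implied by the deposited effective lengths was 228 bases in replicate 1 and 206 in replicate 2. Its part in the members' ratios was not tested.

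Members were also sorted by whether their annotated form, where its length in the tables matched within 20 bases, carries a poly(A) signal (AATAAA, the canonical one, or its common variant ATTAAA) in its last 50 bases. The 11 tested members with the signal had a median log2 ratio of 0.23, with 5 called higher and 2 lower. The 30 in which it was not found had 0.77, with 23 called higher. Only bases past the stop codon were searched. Members annotated with few or no such bases, among them Hist1h3i, Hist1h4k and Hist1h2ai, therefore fell in this class whatever their true end. The 15 whose annotated form has another length had 0.68, with 12 called higher. Over all genes tested, 29.0% were called higher and 26.8% lower. The members with the signal were also longer, with a median of 1256 bases against 462, so the end and the length of the transcript cannot be told apart here. Whether the reads came from tailed or untailed RNA was not tested.

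Few members have more than 1 transcript form in the tables. For Hist1h2bp the form of 469 bases took 86.8% of the gene's TPM in replicate 1 and 74.4% in replicate 2, and the form of 621 bases took 13.2% and 25.6%. The gene had only 49.2 and 49.6 counts. For Hist1h2be a form of 2408 bases took 92.9% and 95.8%, and for Hist1h2br a form of 1256 bases took 100%. In both of these the form of highest TPM did not change between the libraries.

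Many H2A and H2B genes stand head to head, their start sites a short distance apart on opposite strands, so that both are read from 1 shared stretch of DNA. There were 12 such pairs, with 176 to 306 bases between the start sites, and no pair of other types within 500 bases. The H2A gene had the higher TPM in both libraries in 7 pairs, 1 of them with an H2B gene at 0, and the H2B gene in 4, 1 of them with an H2A gene at 0. That H2A gene is Hist1h2ao, whose 0 is a value of the read division, so the order in its pair with Hist1h2bq is not known. The pair of Hist1h2ad and Hist1h2bf changed order. The pairs named here were chosen after their values were seen. Hist1h2ap stood at 168 and 155 times the TPM of its partner Hist1h2br, which had 5.79 and 11.0 TPM. That ratio rests on the division of reads, since all counts of the 2 identical coding sequences went to Hist1h2ap and none to Hist1h2ao, and 0.169% of the windows of Hist1h2br are unique. In the opposite direction, Hist1h2ac, with 10.4 and 8.88 TPM, stood at 0.0240 and 0.0175 times its partner Hist1h2bc. Most pairs were closer, such as Hist1h2ak and Hist1h2bn, at 2.24 and 1.82.

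**Figure D4:**
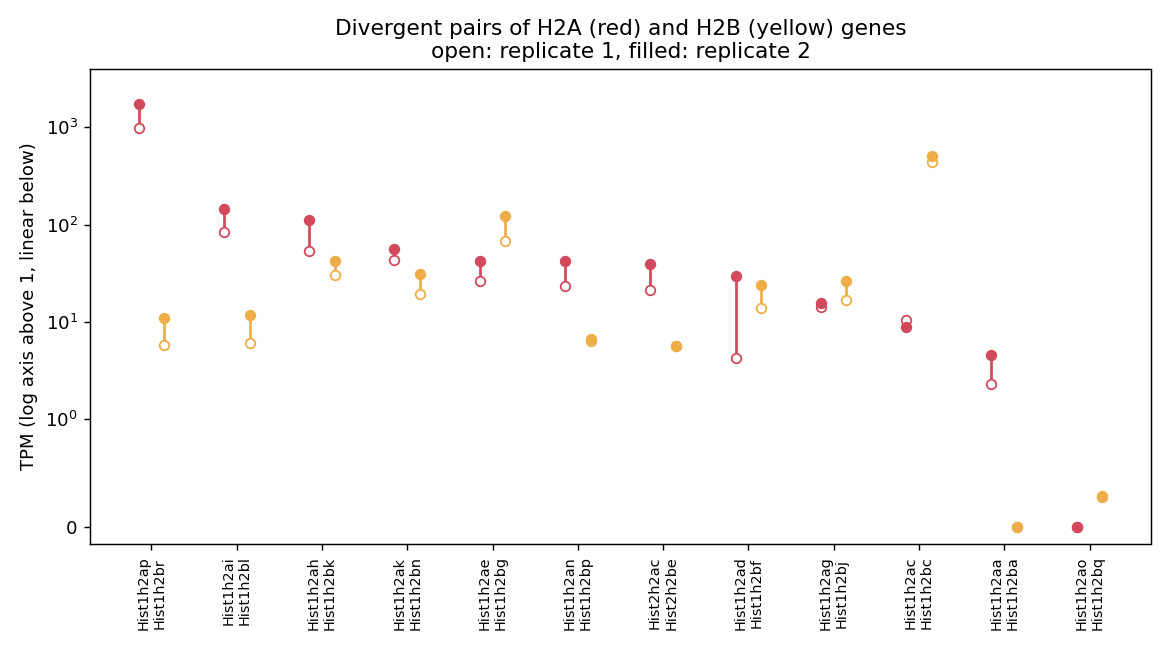
TPM (vertical axis, logarithmic above 1 and linear below) of the H2A gene (red) and the H2B gene (yellow) of each of the 12 divergent pairs, open for replicate 1 and filled for replicate 2. Hist1h2ap with Hist1h2br and Hist1h2ac with Hist1h2bc lie widest apart, in opposite directions.

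Their shared stretches are shown because the genes at either end differ so much in level, with an H4 promoter for contrast. Each run holds the 250 bases before a RefSeq start site (GRCm38.p6), 5′ to 3′ on the strand of the named gene, and capitals mark matches on either strand to the CCAAT box, to the TATA box as TATAAA, and to the octamer ATTTGCAT. The first, upstream of Hist1h2br (chr13:21833493-21833742, plus strand), reaches back to the start of Hist1h2ap. The second, upstream of Hist1h2ac (chr13:23683960-23684209, minus strand), reaches back to the start of Hist1h2bc. The third lies upstream of Hist1h4h (chr13:23530794-23531043, plus strand) and holds no match to these motifs, unlike most H4 promoters matched.
Hist1h2br: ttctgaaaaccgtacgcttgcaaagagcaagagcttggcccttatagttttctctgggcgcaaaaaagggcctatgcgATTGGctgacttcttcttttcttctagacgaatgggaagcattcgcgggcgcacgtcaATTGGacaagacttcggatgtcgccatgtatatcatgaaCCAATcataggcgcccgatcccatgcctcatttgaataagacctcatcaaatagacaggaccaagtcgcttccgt
Hist1h2ac: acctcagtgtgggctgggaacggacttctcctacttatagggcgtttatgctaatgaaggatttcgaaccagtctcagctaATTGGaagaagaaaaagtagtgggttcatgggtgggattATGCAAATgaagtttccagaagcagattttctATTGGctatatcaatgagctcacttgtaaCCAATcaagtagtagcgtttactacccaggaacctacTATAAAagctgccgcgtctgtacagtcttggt
Hist1h4h: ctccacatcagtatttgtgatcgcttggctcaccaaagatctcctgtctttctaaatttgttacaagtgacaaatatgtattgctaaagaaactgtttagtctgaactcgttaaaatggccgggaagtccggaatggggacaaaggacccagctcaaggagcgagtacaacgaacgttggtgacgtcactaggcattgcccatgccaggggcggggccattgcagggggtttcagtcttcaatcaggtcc
CCAAT was found in the 250 bases before the start of all 5 H1, all 17 H2A and all 13 H2B members with a RefSeq start site within 100 bases of the annotated one, in 8 of 10 H3 members and in 3 of 12 H4 members, beside 34.5% of 27025 promoters. TATAAA was found in 28 of the 57 members matched, or 49.1%, beside 13% of all promoters. By type, 3 of 5 H1, 7 of 17 H2A and 8 of 13 H2B members had it. So did 4 of 10 H3 and 6 of 12 H4 members. ATTTGCAT, the octamer bound by POU factors, was found in 7 of 17 H2A and 4 of 13 H2B members and in none of the other types, beside 1.61% of all promoters. None of the 3 motifs contains another. A divergent pair shares part of its window, so the H2A and H2B counts are not independent of each other.

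Genes that act on histone messenger RNA were measured beside their targets. Of 22 tested genes for histone mRNA processing and synthesis, 3 were called higher and 8 lower in replicate 2, beside 29.0% and 26.8% of all genes tested. The median ratio of the list on the log2 scale was 0.01. Slbp, which binds the stem-loop, had 56.5 and 55.0 TPM and a log2 ratio of -0.00. Sympk, a scaffold of the cleavage complex, was the highest of the list at 136 TPM in both libraries, and Lsm10, a protein of the U7 particle, had 53.8 and 47.0. Npat, which activates histone transcription, was called lower, with 5.27 and 3.19 TPM and a log2 ratio of -0.43. Rnu7, the U7 RNA itself, had 0 counts, and it is shorter than the size the libraries kept.

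Genes of DNA replication in S phase did not follow the clustered histones. Of 34 tested, 0 were called higher and 26 lower by the exact binomial test, beside 29.0% and 26.8% of all genes tested. The median log2 ratio of the list was -0.37. At an unadjusted p under 0.05, 0 were higher as well. Pold1, a subunit of DNA polymerase delta, had 134 and 126 TPM, the sliding clamp Pcna 96.4 and 74.3, and the helicase subunit Mcm7 63.6 and 45.6. All 3 were called lower, with log2 ratios of -0.14, -0.32 and -0.46. These genes thus lay on the opposite side of 0 from most members in the same pair of libraries, also on TPM, where their median was -0.43.

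The replication-independent histone variants, most of which are made outside S phase from polyadenylated transcripts, had a summed TPM of 2821 in replicate 1 and 2533 in replicate 2. Of 12 tested, 6 were called higher and 3 lower, beside 29.0% and 26.8% of all genes tested, with a median log2 ratio of 0.09. H2afz, the H2A.Z variant, had 1262 and 891 TPM, beside 972 and 1713 for Hist1h2ap. Since most member RNAs lack a poly(A) tail and poly(A)+ RNA was used, members' TPM may not be comparable with that of tailed variants. How far untailed RNA was removed was not tested. H3f3a, which encodes H3.3, had 358 and 371, and H2afx, whose annotated transcript carries the stem-loop, had 342 and 299. The linker variant H1f0 had 110 and 189 TPM, above the clustered Hist1h1c in both libraries. Histone chaperones, which carry histones to DNA, had 3 genes called higher and 11 lower of 23, with a median of -0.10. Their highest were Ipo4 at 189 and 173 TPM, Ssrp1 at 168 and 122, and Hjurp at 155 and 94.8.

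**Figure D5:**
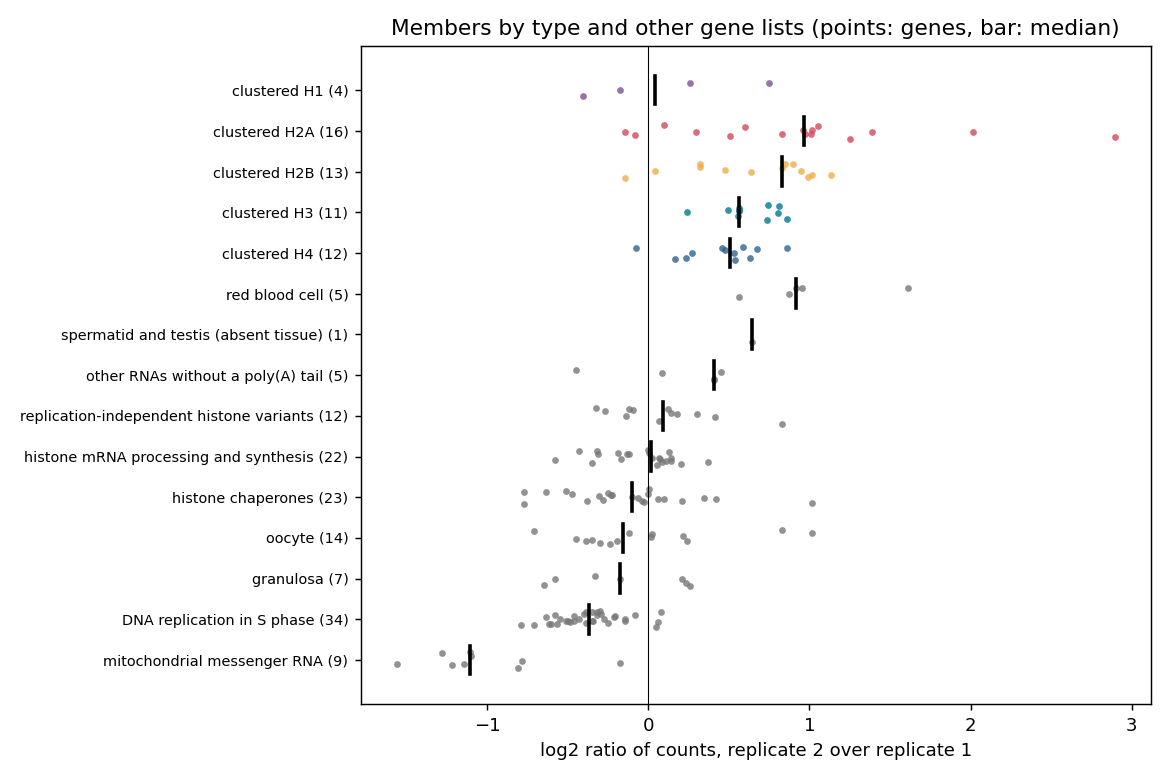
Log2 ratio of counts, replicate 2 over replicate 1 (horizontal axis), for each tested gene (points) of the 5 histone types and of the other lists, with a bar at each median. On the spike-in scale all values shift by -0.43. The plotted medians before that shift were 0.83 for H2B and 0.51 for H4. It takes the summed H2B and H4 counts, which are not plotted, just below 0.

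Other groups moved between the libraries as well, where 29.0% of all genes tested were called higher and 26.8% lower. The 5 tested genes among 11 other RNAs without a poly(A) tail had 4 higher and 1 lower, with a median log2 ratio of 0.41 on counts and -0.17 on TPM. Rn7s1 and Rn7s2 had identical values, so 2 of these higher calls and the median rest on 1 set of reads. Rn7sk, Rmrp and Rn7s1 were the highest of them. The 11 RNAs had a summed TPM of 49851 in replicate 1 and 43652 in replicate 2, though the libraries were made from poly(A)+ RNA. Red blood cell genes had 5 of 5 higher, with a median of 0.91 and a summed TPM of 1086 and 2254. Mitochondrial messenger RNAs had 9 of 9 lower, with a median of -1.11. Oocyte genes had 2 higher and 6 lower of 14 (summed TPM 734 and 701), granulosa genes 3 higher and 4 lower of 7 (8220 and 7097), and the 1 tested spermatid gene, Tssk6, was higher (list summed TPM 4.38 and 3.79). Their part in the members' ratios was not tested.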

How the data were processed

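Gene and transcript tables on build mm10 with GENCODE M4 annotation were used, per the file headers and the labels (aligner and quantifier: not given in the sources used here). Expected counts, as the authors deposited them, need not be whole and were rounded. The authors deposited TPM and FPKM, both divided by effective length, and the percent of a gene's TPM held by each transcript. Names and coordinates came from GENCODE M21 (42462 of 43346 rows matched). Libraries were scaled by TMM (edgeR 4.0.16, R 4.3.3), without 96 spike-in rows. Where the mean count reached 20, the reads of both libraries were compared by an exact binomial test (two-sided, the smaller tail doubled), with Benjamini-Hochberg adjustment over all genes tested. The quasi-likelihood test of edgeR has no residual degrees of freedom here. Ratios used a prior count of 1, and each counting SE leaves out any other error, PCR duplication included. On simulated counts for the 15939 genes tested, 92% of 2-fold and 98% of 4-fold changes were recovered, and 0.0318% of unchanged genes were called. The simulation held counting error only, so it does not show how the test behaves with other variation between libraries or with divided reads. Uniqueness was counted over 76-base windows of all M21 transcripts. RefSeq promoters matched 57 of 64 members. Named in full were the 4 highest members of each type, all H1, Hist3 and Hist4 members, the 5 largest and smallest ratios, and members at 0. The members, lists and rules were chosen with earlier results of these data known, and length classes, end classes and divergent pairs after their values were seen. The lists are those named in the report, and 1 list gene is not reported here. Alternatives were DESeq2 1.42.0 size factors, spike-in scaling, posterior mean counts, other filters, GC and length trends, Bonferroni adjustment, other TPM thresholds and pseudocounts, and single libraries.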

Additional observations from a re-analysis of the deposited data

Results flagged for a closer look

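Reads were also assigned to pseudogene rows of the histone clusters, which no comparison used. Hist1h2aj had expected counts of 8.36 in replicate 1 and 18.84 in replicate 2, and Hist3h2bb-ps had 4 and 7.65, all above the 3 counts that a value of 0 allows. There are no control samples to set them against.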

How the results depend on the processing

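Of the 29 members named in full, 27 were tested. With DESeq2 size factors, posterior mean counts, the gene-length trend removed, no filter or a filter at 100 counts, every count of members called and every median stayed within 1.5 times or within the typical spread of genes between the libraries (0.23 log2). Scaling to the spike-ins changed most: 23 members were higher and 7 lower (7.13% and 71.4% of all genes), the median fell to 0.16, and the summed counts had log2 ratios of -0.58 for H1, 0.42 for H2A, 0.20 for H3, and, reversed, -0.012 for H2B and -0.033 for H4. On that scale Hist1h1e (-0.17), Hist1h2bc (-0.12), Hist1h4h (-0.16) and Hist2h2aa1 (-0.34) reversed too, 6 calls ended (Hist1h2bk, Hist1h4c, Hist1h4d, Hist1h4k, Hist2h3b and Hist4h4, at 0.10 to 0.25), and Hist1h1b was newly called lower. With the GC trend removed, Hist2h2aa1 reversed to -0.26 and the calls of Hist1h3i (0.20), Hist1h4h (0.20), Hist1h4k (0.081), Hist2h3b (0.0065) and Hist3h2a (-0.10) ended. The causes were not tested. With Bonferroni adjustment 27 members were higher and 0 lower (17.4% and 12.4% of all genes), a stricter threshold by construction that ended 8 of the named calls, against 2 lower with Benjamini-Hochberg and the exact binomial test. FPKM, a differently scaled unit, gave mean sums of 30.8 for H1, 514 for H2B, 509 for H3 and 201 for H4. Without Hist1h2ap and Hist1h2af, chosen after seeing the data, the H2A log2 ratio was 0.52. With 1 library left out, 57 members were detected, the summed TPM ranged from 40.9 to 46.6 for H1, 2363 to 4274 for H2A, 632 to 827 for H2B, 603 to 845 for H3 and 262 to 308 for H4, and the main form took 92.9% to 95.8% of Hist1h2be and 74.4% to 86.8% of Hist1h2bp. Members whose posterior mean and expected counts differ over 1.5-fold ranged from 0 to 1 with a library left out, and 0 differed over 2-fold. The stem-loop count was 44 within 150 bases. No paired analysis was possible because there is 1 group. Precision is limited by the number of libraries, 2, and, for near copies, by the division of reads.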
